A study of Arabidopsis thaliana with 9 samples.

Results

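Of 28117 genes measured in Arabidopsis thaliana seedlings, 89 were close to silent in wild type and expressed in both chromatin mutants of the study. A gene was taken into this set when its level was under 0.5 FPKM in all 3 wild-type (WT) libraries and at 1 FPKM or more in all 6 mutant libraries, which are 3 of arid2/3/4 and 3 of epcr1/2. FPKM is the number of sequenced fragments of a transcript, corrected for its length and for the depth of the library. For this set 7 seed storage protein genes were left out by name, and 2 of them, SESA2 and CRU3, would have met both limits. Because the contrast with WT chose the genes, their levels against WT are described here and carry no test.

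All libraries came from 10-day-old whole seedlings grown on MS medium under long days, and the genotypes share this age and growth. WT carries no named mutation. The line arid2/3/4 is mutated in ARID2, ARID3 and ARID4, which encode proteins with an AT-rich DNA-binding domain. The line epcr1/2 is mutated in EPCR1 and EPCR2, which encode Enhancer of Polycomb-related proteins. The labels name no alleles and no accession of origin, and they do not say whether the libraries of a genotype came from separate plantings, so the p-values below measure only the spread between these libraries. In RNA from whole seedlings, more cells of a type and more RNA per cell cannot be told apart.

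ARID, EPCR, PWWP and TRB proteins form the PEAT complexes of plants, which are known for histone deacetylation and for the silencing of heterochromatin. Seed maturation genes, which appear among the 89, encode oil body coats, storage proteins and late embryogenesis abundant (LEA) proteins that protect drying embryos. In wild-type plants they are active late in seed development under the regulators LEC1, LEC2, FUS3 and ABI3, and they are shut off after germination.

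Read from the smallest steps of the values, depth was roughly 17.2 to 25.3 M fragments for replicates 1 and 2 of the genotypes, against 49.7 to 57.8 M for replicate 3. At 0.5 FPKM a transcript of 1 kb would then hold 8.61 to 12.6 fragments in the first kind of library and 24.8 to 28.9 in the second. Replicates 1 and 2 of a genotype were nearly alike (Pearson r of 0.994 to 0.995 across genes, which are not independent), and replicate 3 stood apart from both (r of 0.835 to 0.883). ARID2, ARID3 and ARID4 were lower in arid2/3/4 than in WT, and EPCR1 was lower in epcr1/2. ARID4 was also lower in epcr1/2, at 7.90, 8.12 and 8.73 FPKM against 11.4, 10.9 and 13.6 in WT (limma adjusted p = 0.0454). Of the 5 mutated genes 2 passed in epcr1/2, a count that was 1 to 2 when a library was left out. Over 18 alternative fits that count ran from 1 to 4. For EPCR2 the WT libraries gave 8.36, 6.99 and 11.8 FPKM and the epcr1/2 libraries 10.1, 10.4 and 12, so its level does not mark the mutant. The summed level of 7 leaf mesophyll genes (RBCS, LHCB and CA1) was 48112 to 56633 FPKM in WT and 10846 to 27257 in the mutants, and 3 of the 7 fell in each mutant (7 in arid2/3/4 and 6 in epcr1/2 with the replicate number as a block). The summed level of 8 root genes was 75.0 to 110 FPKM in WT and 24.0 to 62.8 in the mutants. No gene of either list was at 0 in every library of a genotype, and the part of organ composition in the levels described below was not tested.

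"Silent" held only as far as the limit of 0.5 FPKM. Of the 89 genes, 60 had a value above 0 in all 3 WT libraries, 23 were at 0 in 1 of them, 6 in 2 and none in all 3. The median WT mean over the 89 was 0.151 FPKM. In the mutants the levels ran from 1.00 FPKM (AT2G21780 in epcr1/2 replicate 3) to 62.3 FPKM (OLEO1 in arid2/3/4 replicate 1), 34 genes reached 10 FPKM in at least 1 mutant library, 2 did so in all 6, and 29 stayed under 5 in all 6. The genes nearest inside the WT limit were GASA3 (0.496 FPKM in its highest WT library), AT4G17660 (0.488), SRO3 (0.475) and AT5G66780 (0.472), and the nearest outside were AT3G12410 (0.505), AT2G23110 (0.513), AT3G63360 (0.514) and RLP21 (0.520). At the other limit AT2G21780 (1.00 in its lowest mutant library), AT3G28330 (1.02), AT4G25330 (1.02) and HSP23.6-MITO (1.02) lay just inside, and AT4G31615 (0.996), AT3G58450 (0.988), AT1G12890 (0.969) and AT5G41830 (0.952) just outside. No gap in level separates the set from the genes around it.

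For scale, 6850 genes on the 5 chromosomes were under the WT limit. Of these, 5479 stayed under 0.5 FPKM in all 9 libraries, 174 were at 1 FPKM or more in all 3 arid2/3/4 libraries and 180 in all 3 epcr1/2 libraries. Both mutants were read against the same WT libraries. The reverse pattern, 1 FPKM or more in all WT libraries and under 0.5 in all 6 mutant libraries, was met by 52 genes.

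**Figure D1:**
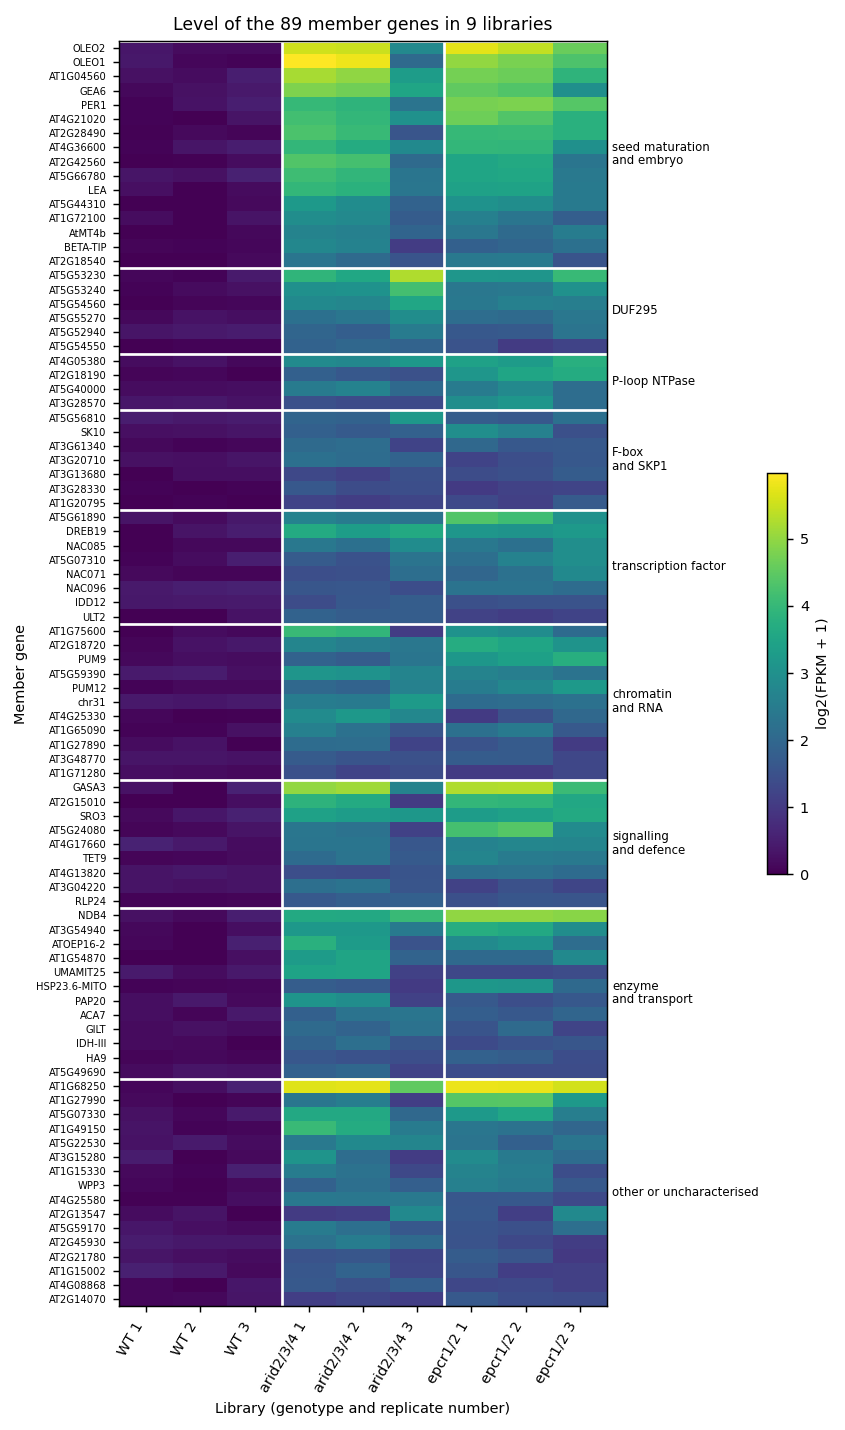
Level of each of the 89 genes (rows, grouped by annotated function) in the 9 libraries (columns), as log2(FPKM + 1) on a colour scale. The WT columns are dark because of how the genes were chosen, and in the seed maturation block arid2/3/4 replicate 3 is darker than replicates 1 and 2 in 16 of 16 rows.

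The set is mixed in function. By annotation 88 of the genes code for proteins and 1, AT1G15002, is a long non-coding RNA that lies antisense to AT1G15000. Sorted by the name of their product, 16 belong to seed maturation and the embryo. Another 6 encode proteins of the DUF295 family (a domain of unknown function). A further 7 are F-box or SKP1-like genes, 4 are P-loop nucleoside triphosphatases and 8 are transcription factors. Placed under chromatin and RNA were 11, under signalling and defence 9, and under enzymes and transport 12. The remaining 16 are of other kinds or uncharacterised. These groups were drawn up after the genes were known, and no test was made of them as groups against WT. A product name does not give the organ in which a gene acts, so other groups may hold genes of seeds.

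The seed maturation group had the highest median of the groups, 11.3 FPKM over the means of its 16 genes in arid2/3/4 and 10.3 FPKM in epcr1/2. OLEO2, an oleosin that coats the oil bodies of seeds, was 0.288, 0.133 and 0.124 FPKM in the 3 WT libraries, 45.8, 44.1 and 6.06 in arid2/3/4 and 52.4, 42.4 and 23.7 in epcr1/2. OLEO1, the major seed oleosin, was 0.297, 0.0684 and 0.0472 FPKM in WT, 62.3, 56.3 and 3.22 in arid2/3/4 and 31.5, 26.4 and 19.0 in epcr1/2. Presence of both oleosins in all mutant libraries follows from how the set was chosen, and of these the third arid2/3/4 library was the lowest.

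LEA-type genes followed. GEA6 (also known as EM6), a LEA gene of maturing embryos, was 0.0906, 0.207 and 0.328 FPKM in WT, 27.6, 25.0 and 10.5 in arid2/3/4 and 21.8, 19.5 and 6.87 in epcr1/2. AT4G21020, another LEA gene, was 0.0439, 0 and 0.252 FPKM in WT, 16.9, 14.5 and 7.18 in arid2/3/4 and 24.4, 19.4 and 12.8 in epcr1/2. In both genes replicate 3 was the lowest of each mutant. The other LEA and dehydrin genes of the group (AT4G36600, AT2G42560, AT5G66780, LEA, AT5G44310 and AT1G72100) had mutant means between 3.87 and 13.4 FPKM.

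AT1G04560, of the AWPM-19-like membrane protein family, was 0.197, 0.151 and 0.409 FPKM in WT, 36.0, 30.6 and 8.82 in arid2/3/4 and 25.8, 24.1 and 13.8 in epcr1/2. PER1, a peroxiredoxin of seeds, was 0.0465, 0.215 and 0.425 FPKM in WT, 15.1, 13.9 and 3.90 in arid2/3/4 and 26.1, 26.8 and 20.3 in epcr1/2. For PER1 the 3 epcr1/2 libraries all lay above the 3 of arid2/3/4, and the difference did not pass the test between the mutants (limma adjusted p = 0.108). BETA-TIP (TIP3;2), a vacuolar membrane channel of seeds, was 0.0569, 0.0462 and 0.0686 FPKM in WT, 5.84, 5.25 and 1.09 in arid2/3/4 and 2.58, 2.86 and 3.65 in epcr1/2. The cupins AT2G28490 and AT2G18540, whose fold is that of seed globulins, and the metallothionein AtMT4b complete the group.

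Promoters of the set were searched for 2 sequence elements known from seed genes. The G-box CACGTG, bound by bZIP factors such as ABI5, was found in the 250 bases before the annotated gene start in 11 of the 16 seed genes, in 22 of 88 protein-coding genes of the set (25.0%), in 3.82% of the 6073 other protein-coding genes under the WT limit and in 6.58% of all 26679. Outside the seed group the G-box was found in 5 of 15 other or uncharacterised genes and 4 of 12 enzyme and transport genes. It was also in 1 of 4 P-loop and 1 of 9 signalling and defence genes, and in none of the remaining groups. The RY element CATGCA, bound by the B3-domain factors ABI3, FUS3 and LEC2, was found in 5 of the 16 seed genes. The RY element was also in 5 of 12 enzyme and transport genes and 3 of 11 chromatin and RNA genes, so neither element was confined to the seed group. It was found in 19 of the 88 (21.6%), in 10.7% of the other genes under the WT limit and in 8.52% of all. Both strands were searched and matches of the RY element may overlap each other. In 100 bases the G-box count over the set was 19 and the RY count 10, 3 of these in the seed group. A match is a description of letters and does not show that a factor binds. The promoters of OLEO1 (2 G-boxes and 3 RY elements, chr4:12900180-12900429, plus strand) and GEA6 (1 G-box, chr2:16780369-16780618, minus strand) are shown because they are well-known seed genes, with both elements in capitals on whichever strand they lie. Sequences and coordinates are those of RefSeq TAIR10.1.
OLEO1: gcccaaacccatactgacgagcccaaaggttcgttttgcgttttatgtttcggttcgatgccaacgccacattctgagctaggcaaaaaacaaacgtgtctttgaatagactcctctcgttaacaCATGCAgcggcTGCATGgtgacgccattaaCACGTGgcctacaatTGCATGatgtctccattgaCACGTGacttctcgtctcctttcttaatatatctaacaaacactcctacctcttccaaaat
GEA6: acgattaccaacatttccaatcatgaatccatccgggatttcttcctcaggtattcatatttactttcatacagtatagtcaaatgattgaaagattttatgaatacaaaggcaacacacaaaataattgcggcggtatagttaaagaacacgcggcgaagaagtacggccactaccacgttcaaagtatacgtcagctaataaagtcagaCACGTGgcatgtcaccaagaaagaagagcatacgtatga

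**Figure D2:**
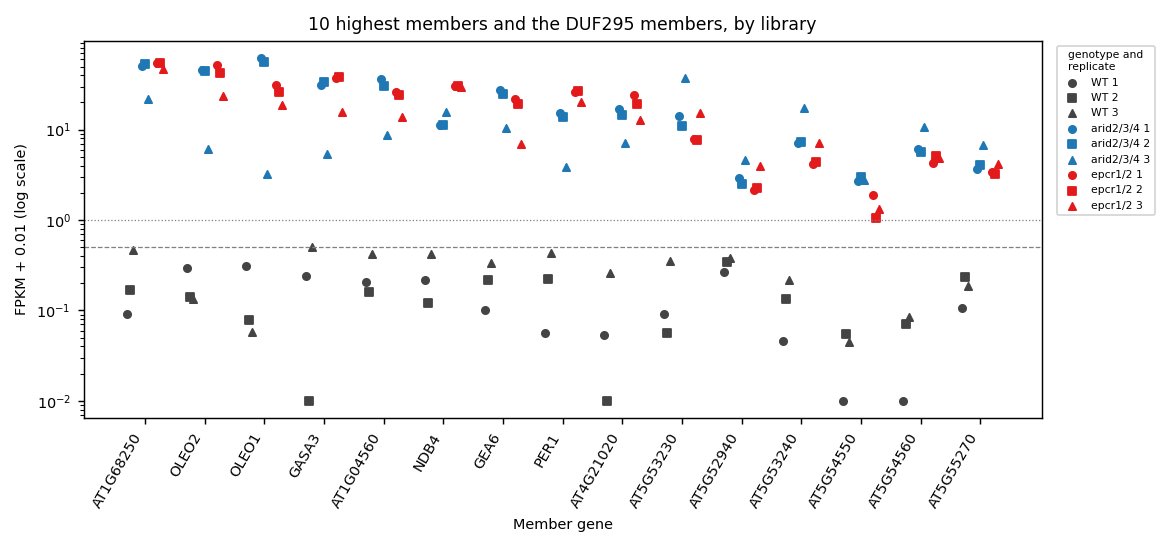
Level in each library, as FPKM + 0.01 on a log axis, of the 10 genes with the highest mean over the mutant libraries and the other DUF295 genes of the set. Symbols give the replicate number, the dashed line is the WT limit of 0.5 and the dotted line the mutant limit of 1, and in OLEO1 arid2/3/4 replicate 3 (3.22) lies far under replicates 1 and 2 (62.3 and 56.3).

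Several of the highest genes are outside the seed group. AT1G68250, an uncharacterised protein with the highest mutant mean of all (46.9 FPKM), was 0.0824, 0.160 and 0.457 FPKM in WT, 51, 52.6 and 21.8 in arid2/3/4 and 54.9, 54.2 and 46.6 in epcr1/2. GASA3, of the gibberellin-regulated GAST1 peptide family, was 0.233, 0 and 0.496 FPKM in WT, 31.4, 34.1 and 5.39 in arid2/3/4 and 37.7, 38.0 and 15.8 in epcr1/2. The levels of both overlapped between the mutants. NDB4, an NAD(P)H dehydrogenase of the mitochondrial membrane, was 0.208, 0.110 and 0.414 FPKM in WT, 11.3, 11.3 and 15.7 in arid2/3/4 and 30.8, 30.6 and 29.5 in epcr1/2. NDB4 was higher in every epcr1/2 library than in any of arid2/3/4 (log2 difference of arid2/3/4 minus epcr1/2 -1.20 ± 0.17, SE, limma adjusted p = 0.00534).

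The 6 DUF295 genes all lie on chromosome 5. AT5G53230 was 0.0811, 0.0469 and 0.343 FPKM in WT, 14.1, 10.9 and 37.4 in arid2/3/4 and 7.89, 7.69 and 15.3 in epcr1/2. Its neighbour AT5G53240 was 0.0361, 0.125 and 0.205 FPKM in WT, 7.04, 7.23 and 17.3 in arid2/3/4 and 4.14, 4.33 and 7.19 in epcr1/2. Both genes were highest in replicate 3 of each mutant, where OLEO1, OLEO2 and GEA6 were lowest. AT5G54560 was 0, 0.0615 and 0.0756 FPKM in WT, 6.13, 5.66 and 10.6 in arid2/3/4 and 4.27, 5.12 and 4.85 in epcr1/2. AT5G55270 was 3.19 to 6.69 FPKM over the mutant libraries and AT5G52940 2.13 to 4.63. AT5G54550, which adjoins AT5G54560, was 2.71, 3.02 and 2.76 FPKM in arid2/3/4 and 1.87, 1.05 and 1.3 in epcr1/2, and was the only DUF295 gene of the set to pass between the mutants (0.68 ± 0.14, limma adjusted p = 0.0231). With the replicate number as a block AT5G53230 (limma adjusted p = 0.0462) and AT5G53240 (limma adjusted p = 0.0306) passed as well, both higher in arid2/3/4.

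These 6 are a small share of their family. The table holds 78 genes whose annotation names DUF295, of which 26 are on chromosome 5, 63 were under 0.5 FPKM in all WT libraries and 42 were under 0.5 in all 9 libraries. The 6 lie within a stretch of 258 genes, in which 13 genes are of the family and no gene outside the family belongs to the set. Of the 7 others in that stretch, AT5G53780, AT5G53790, AT5G54320, AT5G54330 and AT5G54420 were at 0 in most libraries and never above 0.420 FPKM. AT5G54450 was 0.972, 1.18 and 2.54 FPKM in epcr1/2 and AT5G55150 0.915, 0.901 and 1.25, so each fell short of the limit there as well as in arid2/3/4, where they reached 0.789 and 0.740 FPKM. Outside the set 10 genes of the family were at 1 FPKM or more in all 6 mutant libraries, but their WT levels kept them out of the set. Some were well expressed in WT, such as AT1G27540 (17.8, 17.1 and 7.85 FPKM) and AT2G17030 (8.27, 7.72 and 7.12), so the 10 are not a count of genes switched on. Others were low in WT, also on other chromosomes. AT1G30160, on chromosome 1, was 0.470, 0.611 and 1.07 FPKM in WT, 11.8 to 24.0 in arid2/3/4 and 5.13 to 9.98 in epcr1/2. AT4G13680, on chromosome 4, was 0.201, 0.267 and 0.688 FPKM in WT, 2.01 to 2.92 in arid2/3/4 and 2.60 to 3.28 in epcr1/2. Changes over the family are not counted here, because 47 of its other genes were too low to be tested and a gene near 0 in WT could be tested only through its level in the mutants. The 6 genes resemble each other without being copies: over the 15 pairs the gene sequences were 56.5% to 71.9% identical and the 250 bases before the start 47.8% to 53.8%.

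A spaced motif was found in 4 of the 6 DUF295 promoters. The mitochondrial dysfunction motif is bound by NAC factors of the ANAC013 and ANAC017 type under mitochondrial stress. Only the form with CTTG and CAAG and any 5 bases between them was searched, and other forms of the motif were not counted. The searched form reads the same on both strands and occurred in 0.720% of all 26679 promoters. It occurred in 1.25% of the other genes under the WT limit and in 7 of the 88 genes of the set (7.95%). In the DUF295 family 8 of 78 promoters held it (10.3%), among them 4 of the 6 and 3 of the 25 other tested genes. It was chosen after these promoters were read, so its share is a description. The motif is in capitals, read on the strand of the gene (plus for all), at chr5:21598706-21598758, chr5:21601399-21601451, chr5:22158286-22158338 and chr5:22419079-22419131 of TAIR10.1.
AT5G53230: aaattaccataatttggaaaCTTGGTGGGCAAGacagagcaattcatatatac
AT5G53240: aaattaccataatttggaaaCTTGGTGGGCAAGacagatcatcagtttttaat
AT5G54550: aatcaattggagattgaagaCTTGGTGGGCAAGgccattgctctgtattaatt
AT5G55270: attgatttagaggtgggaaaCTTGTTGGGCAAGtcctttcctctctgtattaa
The first 3 carry the same spacer letters, and the neighbours AT5G53230 and AT5G53240 also share the bases before the motif. The other genes of the set with the searched form of the motif were AT5G59390, AT1G49150 and SRO3. The telo-box AAACCCTA was found in 8 of the 88 (9.09%) beside 7.51% of the other genes under the WT limit.

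Genes of the ubiquitin system stayed low. The 7 F-box and SKP1-like genes had mutant means of 1.21 to 4.57 FPKM. F-box proteins select targets for SCF ubiquitin ligases, to which SKP1 proteins tether them. SK10, a SKP1-like gene, was 0.179, 0.205 and 0.261 FPKM in WT, 2.57, 2.24 and 2.63 in arid2/3/4 and 6.78, 5.18 and 1.76 in epcr1/2, so its mutant libraries overlap. AT3G20710, an F-box gene, was 3.61, 3.31 and 2.74 FPKM in arid2/3/4 and 1.3, 1.70 and 2.12 in epcr1/2, with no overlap. The 4 P-loop genes had higher medians in epcr1/2 (8.00 FPKM) than in arid2/3/4 (3.25 FPKM), and 2 of them, AT2G18190 and AT3G28570, passed between the mutants. With the block AT4G05380 passed as well (limma adjusted p = 0.0352).

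The 8 transcription factors were DREB19, AT5G61890 and AT5G07310 of the AP2/ERF family, the NAC factors NAC071, NAC085 and NAC096, the zinc finger gene IDD12 and ULT2, of the ULTRAPETALA family that counters Polycomb silencing in flowers. DREB19 was 0, 0.243 and 0.384 FPKM in WT, 11.7, 9.06 and 11.5 in arid2/3/4 and 7.81, 7.44 and 8.42 in epcr1/2. AT5G61890 was 5.28, 4.63 and 3.84 FPKM in arid2/3/4 and 19.4, 16.4 and 7.12 in epcr1/2. The DREB19 libraries of arid2/3/4 all lay above those of epcr1/2 but the difference did not pass (limma adjusted p = 0.196), and AT5G61890 passed as higher in epcr1/2 (-1.36 ± 0.32, limma adjusted p = 0.035). ULT2 was 0, 0 and 0.232 FPKM in WT, 2.69, 2.41 and 2.39 in arid2/3/4 and 1.28, 1.12 and 1.31 in epcr1/2, and passed as higher in arid2/3/4 (0.64 ± 0.13, limma adjusted p = 0.0188).

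Among the 11 chromatin and RNA genes were chr31 (CLSY3, a remodeller that brings RNA polymerase IV to target loci in RNA-directed DNA methylation), the SAWADEE gene AT4G25330, the XH/XS gene AT5G59390 and the pumilio RNA-binding genes PUM9 and PUM12. The remodeller chr31 was 0.318, 0.284 and 0.355 FPKM in WT, 4.71, 4.50 and 8.59 in arid2/3/4 and 3.23, 3.39 and 3.73 in epcr1/2. Its arid2/3/4 libraries all exceeded those of epcr1/2, and the difference passed only with the replicate block (limma adjusted p = 0.13 without it and 0.0446 with it). AT1G75600, of the histone superfamily, was 15.7, 14.2 and 1.09 FPKM in arid2/3/4 and 7.30, 6.56 and 3.25 in epcr1/2, so arid2/3/4 replicate 3 was only just inside the limit.

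Signalling and defence genes included the tetraspanin TET9, the receptor-like protein RLP24, the TIR-NBS-LRR resistance gene AT3G04220, the thionin AT2G15010 and SRO3 of the RCD1 family, with mutant means of 1.47 to 30.5 FPKM. SRO3 was 9.71, 8.82 and 7.99 FPKM in arid2/3/4 and 8.82, 9.82 and 11.5 in epcr1/2, among the most even of the set. The enzymes and transporters beside NDB4 included UMAMIT25, of the nodulin MtN21-like transporter family, at 10.1, 10.3 and 1.24 FPKM in arid2/3/4 and 1.44, 1.46 and 1.63 in epcr1/2. UMAMIT25 therefore owed its higher arid2/3/4 mean to 2 libraries, and it did not pass between the mutants (limma adjusted p = 0.168).

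The difference between the mutants was not used to choose the genes and was tested on log2(FPKM + 1) in a model across the 21168 genes that reached 0.5 FPKM in 3 or more libraries. Of the 89 genes, 17 passed at an adjusted p under 0.05 (19.1%), 6 higher in arid2/3/4 and 11 higher in epcr1/2, beside 10.5% of all genes tested (5.71% and 4.77% in the respective directions). With the replicate block 28 passed (31.5%, 12 and 16), beside 28.5%. The lean toward epcr1/2 does not hold in every fit: replicates 1 and 2 alone gave 32 higher in arid2/3/4 and 24 higher in epcr1/2, leaving out arid2/3/4 replicate 3 gave 16 and 13, and leaving out epcr1/2 replicate 1 gave 4 and 4. The 72 that did not pass without the block are not shown to be equal in the mutants. The counts rest on replicates 1 and 2 being separate samples. With those averaged as 1 sample and a block, 0 of the 89 passed (limma, 30 at an unadjusted p under 0.05). In that fit only 9 of all genes tested passed (0.0425%), so the 0 lies near the share of all genes. With replicates 1 and 2 alone 56 passed (62.9%), beside 53.8% of all genes. Without arid2/3/4 replicate 3 the count was 29 (32.6%), beside 15.5% of all genes. Without replicate 1 or 2 of arid2/3/4 it was 9 and 10 (10.1% and 11.2%), beside 4.11% and 4.76%. Without replicate 1 or 2 of epcr1/2 it was 8 each (8.99%), beside 3.98% and 3.94%. Without the test, 17 genes had all arid2/3/4 libraries above all of epcr1/2, 16 the reverse, and 56 overlapped, beside 17.7% and 12.6% of all genes for the 2 kinds of separation.

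The largest differences that passed toward arid2/3/4 were in AT4G25330, AT2G45930, AT4G25580, AT5G54550 and AT3G20710. AT4G25330, whose SAWADEE domain in related proteins reads histone H3 tails, was 6.34, 8.10 and 5.87 FPKM in arid2/3/4 and 1.02, 1.79 and 3.05 in epcr1/2 (1.44 ± 0.25, limma adjusted p = 0.0106). AT2G45930, uncharacterised, was 3.76, 4.68 and 3.20 FPKM and 1.88, 1.47 and 1.12 (0.97 ± 0.16). AT4G25580, a CAP160 gene, was 4.30, 4.14 and 4.32 FPKM and 2.09, 2.13 and 1.51 (0.86 ± 0.14). In each of the 3 the groups did not overlap and the call held in all 9 fits that leave out a library.

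Toward epcr1/2 the largest were in AT1G27990, AT5G24080, AT2G18190, PUM9 and AT5G61890. AT1G27990, uncharacterised, was 4.12, 4.85 and 1.15 FPKM in arid2/3/4 and 20.2, 20.5 and 8.44 in epcr1/2 (-2.02 ± 0.44, limma adjusted p = 0.025). AT5G24080, a protein kinase gene, was 4.14, 3.75 and 1.22 FPKM and 17.7, 20.3 and 6.38 (-1.92 ± 0.45). AT2G18190 was 2.57, 2.13 and 1.78 FPKM and 7.89, 10.5 and 11.8 (-1.80 ± 0.17). PUM9 was 2.70, 2.35 and 3.99 FPKM and 8.06, 9.61 and 12.4 (-1.46 ± 0.20). None of the 4 overlapped between the mutants, but AT5G24080 and AT5G61890 passed in only 2 of the 9 fits that leave out a library and AT1G27990 in 6, whereas AT2G18190 and PUM9 passed in all 9.

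**Figure D3:**
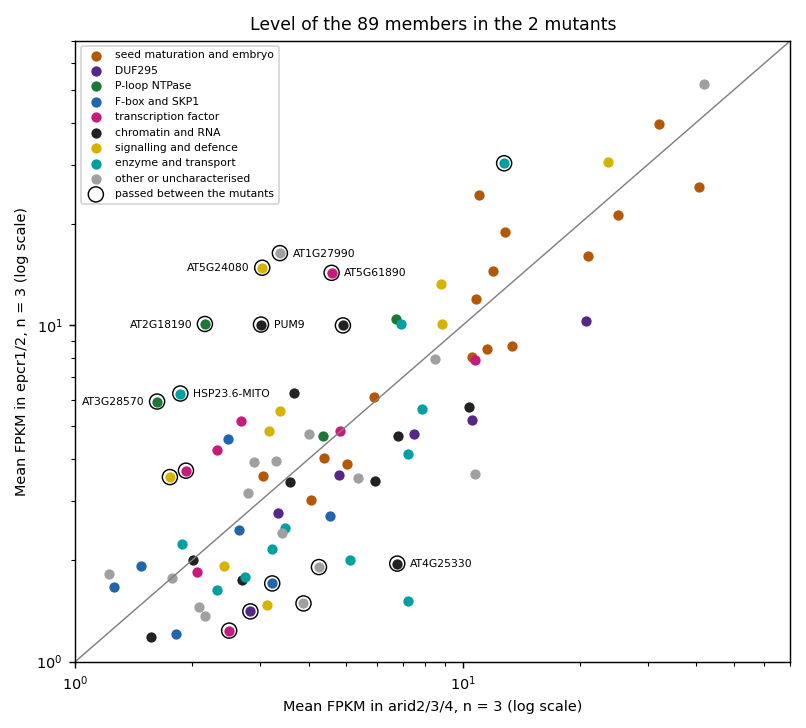
Mean FPKM of each of the 89 genes in arid2/3/4 (x axis) and epcr1/2 (y axis), 3 libraries each, both axes on a log scale, coloured by annotated function with the diagonal of equal level. Rings mark the 17 genes that passed between the mutants, 11 above the diagonal and 6 below it, and no seed maturation gene is ringed.

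None of the 16 seed maturation genes passed between the mutants, without or with the block (limma, 1 at an unadjusted p under 0.05, PER1). The largest difference among them was 1.26 on the log2 scale. Their spread inside a mutant was wide. In arid2/3/4 replicate 3 was the lowest library in 16 of the 16, with a median ratio to the mean of replicates 1 and 2 of 0.282, and in epcr1/2 in 14 of the 16 with a median ratio of 0.544. Over all genes tested replicate 3 was the lowest in 36.7% of genes in arid2/3/4 and in 33.6% in epcr1/2. Over the 89 genes it was the lowest in 59 in arid2/3/4 and in 49 in epcr1/2, so this was not confined to the seed group as drawn up here. In arid2/3/4 it was the lowest in 9 of 12 enzyme and transport genes (median ratio 0.520) and 7 of 9 signalling and defence genes (0.542). The count there was 2 of 7 for the F-box and SKP1-like genes and 3 of 8 for the transcription factors. For the DUF295 genes replicate 3 was the highest in 5 of 6 in arid2/3/4 (median ratio 1.77) and in 4 of 6 in epcr1/2 (1.49), beside 55.4% and 57.4% of all genes, so the epcr1/2 count lies near that of all genes. The median ratio over all genes tested, taken on FPKM + 1, was 1.11 in each mutant. The summed leaf mesophyll list moved with the same libraries, at 27257 and 26031 FPKM in replicate 3 of the mutants and 10846 to 14284 in replicates 1 and 2, and its part in the seed values was not tested.

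**Figure D4:**
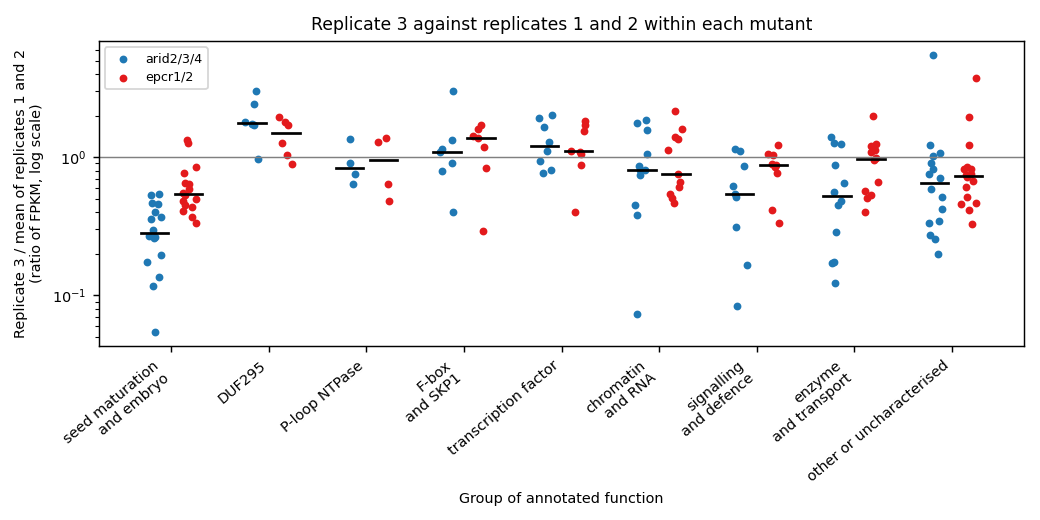
Ratio of replicate 3 to the mean of replicates 1 and 2 for each of the 89 genes (points, FPKM ratio on a log axis) by group of annotated function, in arid2/3/4 (blue) and epcr1/2 (red), with black bars at the medians and a line at 1. Seed maturation genes lie low (medians 0.282 and 0.544) and DUF295 genes high (1.77 and 1.49).

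The genes were spread over all 5 chromosomes. Chromosome 1 held 21 (23.6%, beside 26.4% of the genes in the table), chromosome 2 held 17 (19.1% and 15.7%), chromosome 3 held 11 (12.4% and 19.8%), chromosome 4 held 17 (19.1% and 15.2%) and chromosome 5 held 23 (25.8% and 22.9%). Chromosome 3 thus held the smallest share relative to its genes, and the members per gene were highest on chromosome 4. In the order of locus numbers the median distance between neighbouring genes of the set was 249.5 places.

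Few lay close together. With a limit of 5 places, 4 pairs formed, with 8 of the 89 genes (8.99%). Of these, AT5G53230 with AT5G53240 and AT5G54550 with AT5G54560 adjoin each other and are the DUF295 pairs described above. On chromosome 2 NDB4 and ULT2 had 4 genes between them. On chromosome 5 AT5G07310, an AP2/ERF factor at 2.27, 1.83 and 3.95 FPKM in arid2/3/4 and 3.52, 5.28 and 6.78 in epcr1/2, and AT5G07330, annotated as an NFU1 iron-sulfur cluster protein at 11.2, 11.2 and 3.03 FPKM and 8.38, 10.6 and 4.89, had 3 between them. AT5G07310 did not pass between the mutants (limma adjusted p = 0.128), but did so as higher in epcr1/2 once the block was added (limma adjusted p = 0.0146). The 2 mixed pairs join genes of unlike function, and the libraries of AT5G07310 and AT5G07330 ran in opposite order, highest and lowest in replicate 3.

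**Figure D5:**
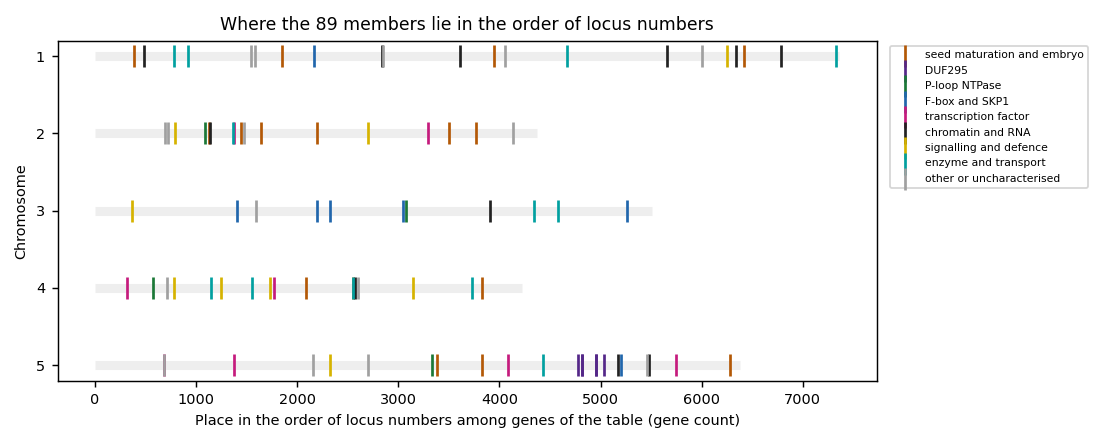
Place of each of the 89 genes (ticks, coloured by annotated function) in the order of locus numbers on the 5 chromosomes, counted in genes of the table. The ticks are spread along every chromosome, and the 6 DUF295 genes fall within 258 genes of chromosome 5.

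Genes next to the set were looked at as well, since they were not used in choosing it. The nearest gene outside the set on each side gave 174 genes, of which 130 were tested. In arid2/3/4 14 of these rose (10.8%) and 18 fell (13.8%), beside 8.78% and 12% of all genes tested, and in epcr1/2 19 rose (14.6%) and 28 fell (21.5%), beside 10.8% and 17.8%. With the replicate block 32 rose (24.6%) and 37 fell (28.5%) in arid2/3/4, beside 19.4% and 25.7% of all genes. In epcr1/2 31 rose (23.8%) and 40 fell (30.8%), beside 19.3% and 31.9%. The shares that rose lay slightly above those of all genes in each fit. Those that fell did so too, except in epcr1/2 with the block. Whether these margins exceed the spread was not tested. Some neighbours that rose were under 0.5 FPKM in all WT libraries and could be tested only through the mutants. AT1G54860 was such a gene in both mutants, AT2G45940 and AT5G22540 in arid2/3/4, and AT1G28000, AT2G18180, AT3G28560 and GASA2 in epcr1/2. The rise of these genes is a description of levels and no evidence of direction.

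A few neighbours moved strongly. AT2G18193 adjoins AT2G18190, which it matches over 71.4% of the gene sequence, and was 4.74, 4.22 and 2.91 FPKM in WT, 54.6, 47.9 and 56.0 in arid2/3/4 and 125, 116 and 145 in epcr1/2. SK9 adjoins SK10 (73.2% identical) and was 0.726, 0.327 and 0.129 FPKM in WT, 16.0, 14.1 and 11.4 in arid2/3/4 and 72.1, 84.8 and 15.1 in epcr1/2. AT3G28580 adjoins AT3G28570 (58.6% identical). Its levels were 3.79, 3.09 and 0.708 FPKM in WT, 51.5, 42.9 and 38.9 in arid2/3/4 and 54.9, 57.0 and 70.4 in epcr1/2. AATP1 adjoins AT5G40000 (57.9% identical) and rose by a log2 change of 1.34 in each mutant. In the pairs of AT2G18193, SK9 and AT3G28580 the neighbour outside the set reached the higher level. How the reads of such related genes were divided is not given in the sources used here. AT5G44306, next to the LEA gene AT5G44310, rose by a log2 change of 5.12 ± 0.55 in arid2/3/4 and 4.72 ± 0.55 in epcr1/2 (limma adjusted p = 0.000927 and 0.000819). Among neighbours that fell, the thioesterase gene AT1G68260, next to AT1G68250, was 30.0, 25.1 and 33.3 FPKM in WT, 0.696, 0.750 and 0.956 in arid2/3/4 and 6.10, 3.61 and 7.90 in epcr1/2. AGP22, next to AT5G53240, fell by a log2 change of 2.47 in arid2/3/4 and 3.27 in epcr1/2, and AT1G54890, an LEA-like gene, by 1.22 and 2.13. AT1G68250 and AT1G68260 thus show opposite patterns side by side.

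Other genes of the programmes in which the set takes part were read from lists. Against WT, 8.78% of all genes tested rose and 12% fell in arid2/3/4, and 10.8% rose and 17.8% fell in epcr1/2. With the block 45.1% passed in either direction in arid2/3/4 and 51.2% in epcr1/2. A gene under 0.5 FPKM in every WT library could be tested only through its level in the mutants, so a rise of such a gene is a description of levels and no evidence of direction. Of 33 seed maturation genes 5 are in the set (GEA6, OLEO1, OLEO2, PER1 and BETA-TIP), 27 others were tested and 12 of the 27 were under 0.5 FPKM in all WT libraries, SESA2 and CRU3 among them. Only 7 were at 0.5 FPKM or more in all 3 WT libraries, a split made after the values were seen. Of these 7, 6 rose in arid2/3/4 and 5 in epcr1/2, and 0 fell (LEA7, LEA18, LEA4-5, OLEO4 and AT3G01570 in both, RAB18 in arid2/3/4 alone, OLEO3 in neither). LEA18, a LEA gene, was 0.953, 0.541 and 2.35 FPKM in WT, 105, 81.1 and 35.5 in arid2/3/4 and 148, 111 and 54.2 in epcr1/2. OLEO4, an oleosin, was 3.13, 3.48 and 2.46 FPKM in WT, 14.5, 16.6 and 8.6 in arid2/3/4 and 22.4, 21.3 and 27.0 in epcr1/2. Neither gene overlapped between WT and a mutant. Counts over all 27 include the 12 that could be tested only through the mutants, so they describe levels and are no evidence of direction. Over all 27, the count that rose was 18 in arid2/3/4 and 19 in epcr1/2 (27 and 21 with the block). In arid2/3/4 it was 8 without replicate 1 or 2 of WT or of arid2/3/4 and 11 without replicate 1 or 2 of epcr1/2, and in epcr1/2 it was 12 without replicate 1 or 2 of WT or of epcr1/2.

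Regulators of the seed programme passed at about the share of all genes in arid2/3/4. Of 17 listed 12 were tested, and 1 rose and 1 fell in arid2/3/4 (2 and 1 with the block), while 4 rose and 2 fell in epcr1/2 (6 and 3 with the block). ABI3 was 0.0236, 0.0548 and 0.0358 FPKM in WT, 0.521, 0.480 and 0.420 in arid2/3/4 and 0.891, 0.688 and 0.537 in epcr1/2. It and FUS3, which rose in epcr1/2, were under 0.5 FPKM in all WT libraries and entered the test only through the mutants. PKL fell in arid2/3/4 (-0.86 ± 0.25), and in epcr1/2 EEL and AGL15 rose and WRI1 and DOG1 fell, these genes being named after their values were seen.

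The remaining lists have no gene in the set. Of 19 floral organ identity genes 9 were untested and 4 of the 10 tested were under 0.5 FPKM in all WT libraries. In arid2/3/4 AP3, PI, SEP3, SHP1 and SHP2 passed as higher, and in epcr1/2 AP1, SEP3 and UFO (4 higher and 1 lower with the block). Of these AP3, SHP2, AP1 and UFO are among the 4 that could be tested only through the mutants. Of 9 shoot meristem genes, STM and CUC1 rose in arid2/3/4 (5 with the block) and 8 in epcr1/2 (9 with the block), and 2 of the 9 were under 0.5 FPKM in all WT libraries. Of the 5 at 0.5 FPKM or more in all WT libraries, 1 rose in arid2/3/4 and 4 in epcr1/2 (4 and 5 with the block). Of 14 pollen and tapetum genes 11 were untested, and GRP19 passed as higher in both mutants (with the block 2 higher and 1 lower in arid2/3/4). Only 1 of the 3 tested was at 0.5 FPKM or more in all WT libraries, and that gene passed as higher in neither mutant. Of 4 tested genes that depend on DNA methylation FWA, under 0.5 FPKM in all WT libraries, passed as higher and ROS1 as lower in both. These genes too were named after their values were seen. The 2 mutants share their WT libraries, so agreement between the mutants is not independent evidence.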

How the data were processed

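Messenger RNA of 9 libraries (3 genotypes, 3 replicates each, numbered in the labels) was read from the authors' deposited table of 28117 genes. Reads were aligned with STAR 2.5.2b to TAIR10 and expression was estimated with Cuffdiff, per the submitters' processing notes. The deposited values are taken as FPKM, inferred from Cuffdiff's output and from the values, since the header names no unit. Whether counting used strand is not given in the sources used here. All 278 chloroplast and mitochondrial genes are listed at 0.

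Differences were tested with limma 3.58.1 (R 4.3.3, trended variances, Benjamini-Hochberg adjusted p under 0.05) on log2(FPKM + 1), over the 21168 genes that reached 0.5 FPKM in 3 or more libraries. Fold changes on this scale understate the change of low genes. All 3 genotypes shared 1 fit and its estimate of spread. The fit was tested on simulated data with known changes. Same-numbered libraries of different genotypes deviated together (r of 0.635 to 0.835 in 9 pairs), so the replicate number was added as a block, and that result is given beside a count or a described gene where it moves the count by over 1.5 times or changes the call. Replicates 1 and 2 also deviated together across genotypes (0.660 to 0.765 in 6 pairs), so a fit that averages them was tried.

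Gene positions, products, promoters (250 bases before the annotated gene start) and motif matches came from the RefSeq annotation of TAIR10.1, joined by locus number, with Python 3.11.15. Clusters were genes within 5 places of each other in the order of locus numbers. The text names genes with the highest mutant means, those with the largest differences between the mutants in each direction, genes at the limits, clustered genes and genes of the lists. The members, the lists and the motifs were chosen with earlier results of these data known, and the groups of annotated function were assigned by hand after the members were known. The FPKM values limit depth to the rough estimates given, and no counting intervals were computed.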

Additional observations from a re-analysis of the deposited data

Results flagged for a closer look

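The change from WT differed between the mutants in the test of the difference itself (limma, all 3 genotypes in 1 fit) in 10 genes named for the size of that difference. It is given as arid2/3/4 minus epcr1/2 on the log2(FPKM + 1) scale. Toward arid2/3/4 it was 1.44 in AT4G25330, 0.97 in AT2G45930, 0.86 in AT4G25580, 0.68 in AT5G54550 and 0.65 in AT3G20710. Toward epcr1/2 it was -2.02 in AT1G27990, -1.92 in AT5G24080, -1.80 in AT2G18190, -1.46 in PUM9 and -1.36 in AT5G61890. Over 18 alternative fits every one of the 10 kept its direction, from 1.20 to 1.85 in AT4G25330 and from -2.41 to -1.57 in AT1G27990. Fits in which the call was lost numbered 1 for AT4G25330, AT2G45930, AT2G18190 and PUM9 each, 2 for AT4G25580, 5 for AT1G27990, 8 for AT5G54550 and 10 for AT3G20710, AT5G24080 and AT5G61890 each. AT2G18190 adjoins the related gene AT2G18193, and the part of read assignment in its difference was not tested.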

How the results depend on the processing

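The set itself moves with its limits. It held 89 genes as described, 44 with WT under 0.25 FPKM, 195 with WT under 1, 183 with mutants at 0.5 or more, 42 with mutants at 2 or more, 229 from replicates 1 and 2 only, and 89 to 138 when a library was left out (138 without WT replicate 3). Locus clusters numbered 4, with 2 at 1 place and 7 at 20 places. Of the 89 genes, 17 differed between the mutants: 10 when only the compared groups were fitted, 9 with a pseudocount of 0.1, 28 with the replicate block, 0 with replicates 1 and 2 averaged and the block, 56 from replicates 1 and 2 only, and 8 to 29 when a library was left out. The same settings, without the pseudocount, gave 1477, 6039, 9, 11396 and 834 to 3284 of all genes, beside 2218. Flanking genes called in arid2/3/4 (32) numbered 69 with the block, 17 averaged, 88 from replicates 1 and 2 only and 15 to 47 when a library was left out. In epcr1/2 (47) they numbered 71, 85 from replicates 1 and 2 only and 36 to 54. With the nearest 3 genes on each side, an alternative chosen after seeing the data that covers more genes, the counts were 88 and 135. Called genes of the 6 lists other than the mutated, leaf and root genes numbered 30 in arid2/3/4 (9 averaged, 56 from replicates 1 and 2 only, 14 to 39 when a library was left out) and 39 in epcr1/2 (59 from replicates 1 and 2 only, 28 to 50). In 100 bases before the start, also chosen after seeing the data, the RY element was found in 10 genes of the set in place of 19. The cause of these moves was not tested. The 10 genes named for the largest differences between the mutants kept their direction in all fits, but the split of the 17 (6 higher in arid2/3/4, 11 in epcr1/2) turned to 32 and 24 from replicates 1 and 2 only and to 16 and 13 without arid2/3/4 replicate 3. Levels near the limits rest on few fragments, most of all in replicates 1 and 2.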

Other observations

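Of the 89 genes, 18 have an annotation text that names organs of expression, and 7 of these name seed or embryo (38.9%), beside 15.4% of the other genes under the WT limit and 11.8% of all genes with such a text. Flower was named by 5 of the 18 (27.8%, beside 38.1% and 26.6%), pollen by 2 (11.1%, beside 17% and 14.6%) and root by 3 (16.7%, beside 13.9% and 30.7%). The median transcript length was 1313 bases for the set, 912 for the other genes under the WT limit and 1509 for all genes. By position 23 of the 89 overlap another annotated gene, 21 of them on the opposite strand, and 15 overlap a gene of the table. Without knowledge of strand in the counting, reads of such pairs cannot be told apart.

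The DUF295 gene AT5G52930, which lies just before the stretch on chromosome 5, was 0.405, 0.625 and 0.942 FPKM in WT, 1.41, 1.52 and 4.12 in arid2/3/4 and 2.61, 2.37 and 4.76 in epcr1/2. Its WT level kept it out of the set.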
